A study of Homo sapiens with 12 samples.

Results

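The cytosolic ribosomal protein genes were followed in A375 cells, a human melanoma line with mutant BRAF, across 4 treatments of 24 h. Genes were taken from the deposited count table by their names, as those beginning with RPL or RPS and a number, with an optional A or X, together with RPSA, RPLP0, RPLP1 and RPLP2. The rule found 77 genes among the 26475 of the table, 31 encoding proteins of the 40S subunit and 46 of the 60S subunit. All 77 passed the filter on low counts, which kept 15443 genes. The cells had received 1 µM XL413, an inhibitor of the replication kinase CDC7, or 1 µM GSK343, an inhibitor of the histone methyltransferase EZH2, or both compounds at these doses, or the solvent DMSO. Each group had 3 biological replicates per the labels, and the 12 libraries were prepared from poly-A RNA by a dUTP method that keeps the strand. All came from a single cell line, so the spread between replicates is that between cultures of these cells. A few ribosomal proteins, FAU and RACK1 among them, have gene names outside the rule.

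A cytosolic ribosome carries each of its core proteins once, apart from the acidic stalk proteins, so these genes supply parts that are needed in equal amounts. Their mRNAs are short and abundant. Most start with a C followed by a run of pyrimidines, the 5′ terminal oligopyrimidine (TOP) tract, through which their translation is adjusted as a group by mTOR and the RNA-binding protein LARP1. Surplus ribosomal proteins are degraded, and free RPL5 and RPL11 bind MDM2, which links ribosome assembly to p53. Several members are mutated in Diamond-Blackfan anaemia, and a reduced dose of RPS14 underlies the anaemia of the 5q- syndrome.

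Pyrimidine runs of the TOP kind were looked for around the annotated starts. The windows below, from RefSeq on GRCh38.p14, run from 15 bases before to 15 bases from the annotated start, in transcript direction, and capitals mark the longest run of a C followed by at least 5 bases that are each C or T. They were chosen after the values were seen. The first 7 belong to members called higher with GSK343+XL413 in the fits with and without replicate 2, and the last 5 to members whose GSK343+XL413 and DMSO libraries overlapped, so that both can be compared at the start site.
RPL39 (chrX:119791616-119791645, minus strand): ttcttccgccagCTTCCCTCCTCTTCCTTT
RPS29 (chr14:49598696-49598725, minus strand): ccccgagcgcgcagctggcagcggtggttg
RPS27 (chr1:153990747-153990776, plus strand): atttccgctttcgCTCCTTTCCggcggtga
RPL36A (chrX:101390996-101391025, plus strand): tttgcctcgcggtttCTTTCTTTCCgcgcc
RPL12 (chr9:127451392-127451421, minus strand): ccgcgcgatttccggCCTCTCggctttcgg
RPL22 (chr1:6199581-6199610, minus strand): tagttcgctcaCCTCCCTTTCTaactccgc
RPL26 (chr17:8383179-8383208, minus strand): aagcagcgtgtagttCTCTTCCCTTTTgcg
RPL28 (chr19:55385917-55385946, plus strand): tcgcccctcgCCTTCCTCTTTCCgtctcag
RPS15 (chr19:1438381-1438410, plus strand): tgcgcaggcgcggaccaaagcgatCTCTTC
RPL14 (chr3:40457324-40457353, plus strand): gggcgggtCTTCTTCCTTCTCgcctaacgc
RPL18 (chr19:48619164-48619193, minus strand): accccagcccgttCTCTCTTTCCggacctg
RPL35 (chr9:124861943-124861972, minus strand): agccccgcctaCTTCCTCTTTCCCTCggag

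Such a run was present in both sets, and it was absent from the annotated window of RPS29. It began at the annotated start itself in RPL36A, RPL12 and RPL26 and elsewhere in the window in the others. The RefSeq table of starts held 62 of the 77 members. A run was found at a start of 55 of these 62 (88.7%), against 30.2% of 15780 other coding genes. The hexamers CTTTCC and CTTTTC, on the transcript strand, are themselves such runs, so their counts are part of the count above. CTTTCC was found in 30.6% of the 62 members and in 2.16% of the other genes, and CTTTTC in 17.7% and 1.57%. These are matches of letters in a fixed window, not mapped transcript ends. RPL5, RPL8 and RPS2 were among the members without an entry.

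Libraries held 31553205 to 39079931 counts. GSK343+XL413 replicate 2 stood apart: across 12364 genes the SD of its deviation from its group was 0.277 on the log2 scale, against 0.134 to 0.178 in the other 11 libraries, and longer transcripts had lower deviations in it (Spearman's rho −0.638, against −0.427 to 0.550). Members are short, with a median transcript length of 716 nt against 2456 nt for all tested genes. Most counts, medians and fold changes that depend on GSK343+XL413 replicate 2 are therefore given with and without it. Leaving it out does not remove the length trends of other libraries, such as GSK343 replicate 3 (rho 0.469) and DMSO replicate 1 (rho −0.213). Of 8 markers of melanoma or melanocytes, 4 exceeded 1 CPM in every group. SOX10 and MITF were present at 296 to 370 and 36.6 to 50.5 CPM, counts scaled to library size, while TYR was at 0 and MLANA and DCT reached at most 0.204 and 0.143 CPM. AXL, also on the list, had 338 to 486 CPM over the libraries, and S100B 22.0 to 28.4 CPM. The summed level of this list was 708 to 735 CPM with GSK343+XL413, against 864 to 913 CPM with DMSO. It was 764 to 820 CPM with XL413 and 784 to 832 CPM with GSK343. How much of this came from AXL alone was not separated, and the list's part in the results below was not tested. Of the markers of other cell types, 6 of 6 for fibroblasts, 2 of 6 for epithelium, 2 of 6 for leukocytes and 1 of 4 for endothelium exceeded 1 CPM. Their summed ranges overlapped those with DMSO in each compound group, except for leukocyte markers at 52.3 to 56.7 CPM with GSK343+XL413 against 47.6 to 51.7 CPM with DMSO, and endothelial markers at 8.24 to 8.83 CPM with XL413 against 6.996 to 8.01 CPM with DMSO; their part was not tested. Fewer cells of a kind and less RNA per cell cannot be told apart in such bulk samples.

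Ribosomal protein mRNA made up about 1 in 10 counts. The 77 genes had a median level of 1169 CPM over the 12 libraries, with a range of 354 to 4214 CPM, against a median of 20.01 CPM for all tested genes, and 51 members exceeded 1000 CPM. Most of the proteins are used in equal numbers, the acidic stalk proteins RPLP1 and RPLP2 aside. The mRNA level per kilobase of transcript spanned 12.8-fold over the 77 genes, with RPLP1 at the top. RPLP1 of the ribosomal stalk, RPL13A and RPL41 were highest at 3865, 3838 and 3491 CPM per kb. RPS28, RPL35A and RPL32 were lowest at 303, 458 and 490 CPM per kb, and the median was 1648. This order depends on which transcript sets the length: by coding length the highest 3 were RPL41, RPL13A and RPLP1, whereas RPS28, RPL35A and RPL32 took ranks 59, 64 and 54 of 77. The 2 rankings correlated with a Spearman's rho of 0.823 over the 77 genes.

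Close copies limit single values for some members. RSEM divides reads that fit several genes, and 15.2% of the members' values were not whole numbers. These came from 18 members, and 59 of 77 had exactly whole values, as deposited, in all 12 libraries. RPL39, RPL36A, RPL10, RPL13A, RPL15, RPL21, RPS10 and RPSA had a divided value in every library, so their levels are less certain. The table also lists 31 pseudogenes of members, whose summed counts came to 0.0644% of the members' counts.

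The share of each library's counts that fell in the 77 genes was followed as a summary of the group. With XL413 it was 9.64, 10.4 and 10.2%, with GSK343 10.4, 9.93 and 9.12%, and with GSK343+XL413 10.4, 11.9 and 10.3%, against 9.68, 9.19 and 9.26% with DMSO. All 3 GSK343+XL413 libraries were above all 3 DMSO libraries, whereas the XL413 and GSK343 groups overlapped DMSO, XL413 with its replicate 1 and GSK343 with its replicate 3. As group means this was 10.1 ± 0.402% with XL413, 9.82 ± 0.651% with GSK343 and 10.9 ± 0.906% with GSK343+XL413, against 9.38 ± 0.267% with DMSO (SD, n = 3 each). Without replicate 2 the GSK343+XL413 mean was 10.4 ± 0.0690% (n = 2). Counts in 40S genes divided by counts in 60S genes gave 0.688 ± 0.00340 with XL413, 0.673 ± 0.0117 with GSK343 and 0.690 ± 0.00631 with GSK343+XL413, against 0.673 ± 0.00645 with DMSO (SD, n = 3 each). Without replicate 2 the GSK343+XL413 ratio was 0.687 ± 0.00359 (SD, n = 2). All XL413 and all GSK343+XL413 libraries had a higher ratio than all DMSO libraries, and the GSK343 libraries overlapped them. No p-value is given for these summaries.

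**Figure D1:**
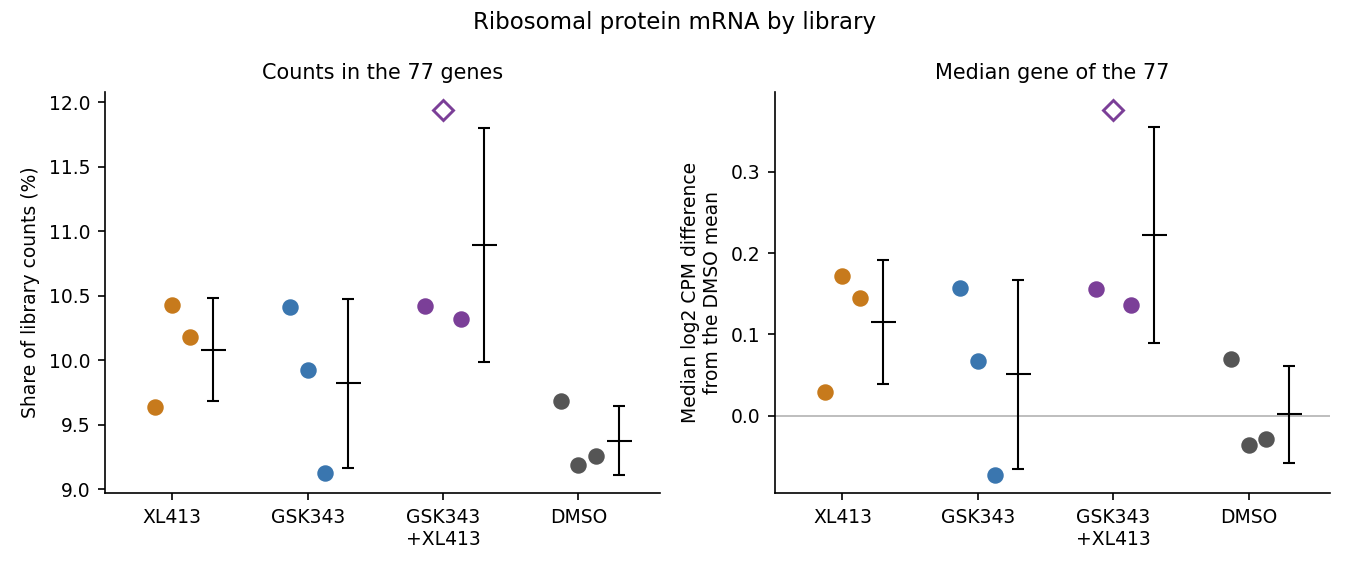
Left, share of library counts (percent) in the 77 ribosomal protein genes. Right, median over the genes of the log2 CPM difference from the DMSO mean; groups run along the x axis. Points are libraries in the order of their replicate numbers, the open diamond is GSK343+XL413 replicate 2, and bars give mean ± SD of 3 libraries. The 3 GSK343+XL413 shares, 10.4, 11.9 and 10.3%, lie above the 3 DMSO shares, 9.68, 9.19 and 9.26%.

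Ribosomal protein mRNAs of both subunits were modestly higher with the combination. With edgeR's quasi-likelihood test and Benjamini-Hochberg adjustment over all tested genes, 39 of 77 members were called higher with GSK343+XL413 than with DMSO at an adjusted p under 0.05, against 6.69% of all genes, and 0 were called lower. Without replicate 2 the count was 26, against 6.72% of all genes, and all 26 were among the 39. By subunit, 16 of 31 genes of the 40S and 23 of 46 of the 60S were called higher, with median log2 fold changes of 0.25 and 0.21, and 12 and 14 without replicate 2, with medians of 0.17 and 0.13. The 0 called lower stood against 7.25% of all genes. In both fits 0 were lower with an unadjusted p under 0.05, against 15.5% of all genes, and 14.5% without replicate 2. DESeq2 and limma-voom called 0 lower. The median log2 fold change of the members was 0.22, a factor of 1.17, against 0.0060 for all tested genes. Without replicate 2 it was 0.15, against 0.010. Members with a positive fold change numbered 77 of 77, and 72 of 77 without replicate 2. In 61 of 77 members all 3 GSK343+XL413 libraries exceeded all 3 DMSO libraries, which was so for 16.3% of all genes. With only replicates 1 and 3 the count was again 61, against 23.4%. No member had all 3 below, which was so for 17.4% of all genes.

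These counts rested on the DMSO libraries. Without DMSO replicate 2 there were 2 members called higher, RPL12 and RPL39, against 2.27% of all genes, and without DMSO replicate 3 there were 3, these and RPL22, against 2.96%. Both counts were near the share of all genes. Leaving out DMSO replicate 1 left 28, against 3.61%, and leaving out GSK343 replicate 2 left 25, against 5.11%. In a fit of only these 2 groups 16 were called higher, against 2.21%. RPL12 and RPL39 were called higher in all 12 fits that left out 1 library. The median fold change of the members in these 12 fits lay between 0.15 and 0.26.

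**Figure D2:**
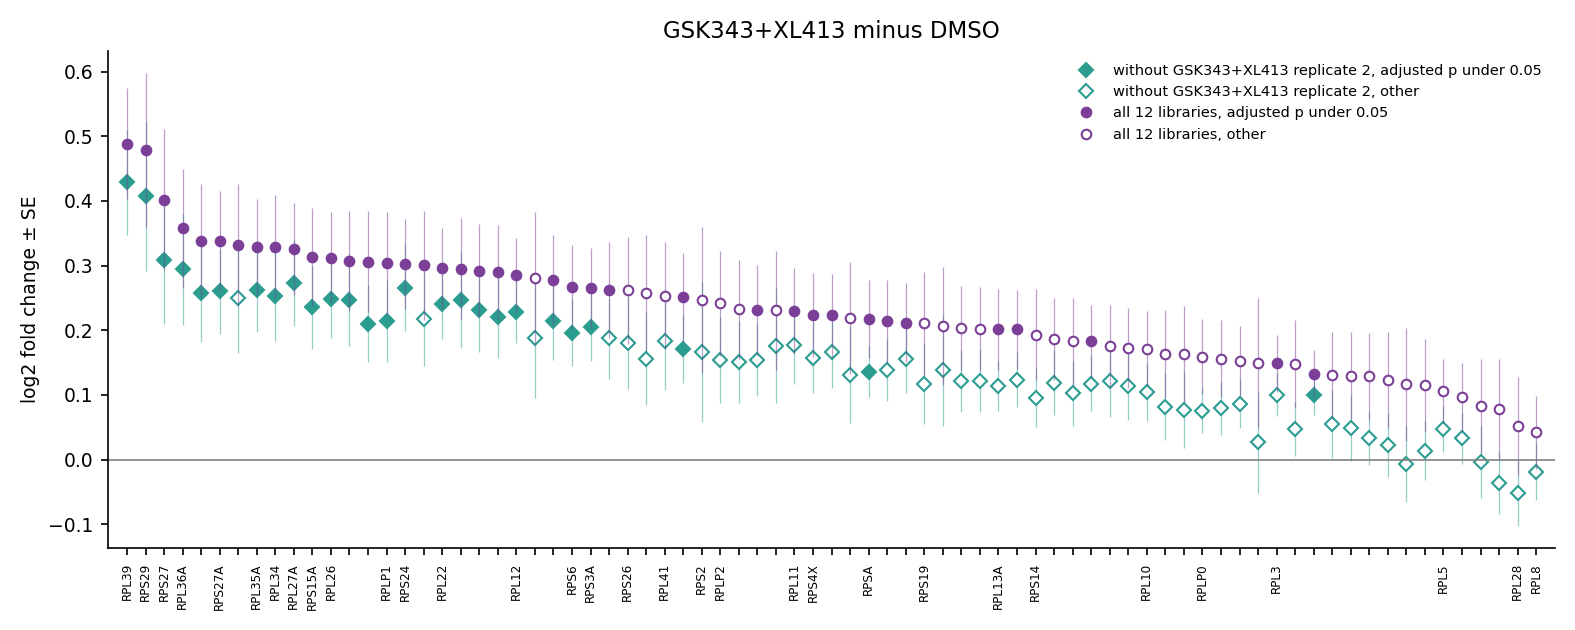
Log2 fold change ± SE (y axis) of GSK343+XL413 minus DMSO for each ribosomal protein gene (x axis, by size of the change; genes whose fold change is given in the text are labelled). Circles come from all 12 libraries and diamonds from the fit without GSK343+XL413 replicate 2; filled symbols have an adjusted p under 0.05. The order runs from RPL39 at 0.49 to RPL8 at 0.042, and 39 circles and 26 diamonds are filled.

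RPL39, whose very short protein lines the exit tunnel of the 60S subunit, changed most. It had 844, 980 and 879 CPM with GSK343+XL413, against 680, 616 and 631 CPM with DMSO. The groups did not overlap, and the lowest combination library was above the highest DMSO library by more than the DMSO range. Its log2 fold change was 0.49 ± 0.086 (SE), with an edgeR adjusted p of 0.0040, and 0.43 ± 0.081 without replicate 2 (adjusted p = 0.0028).

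RPS29 and RPS27, small zinc-binding proteins of the 40S subunit, came next. RPS29 had 387, 457 and 401 CPM with GSK343+XL413, against 328, 271 and 296 CPM with DMSO. RPS27 had 1273, 1530 and 1256 CPM with GSK343+XL413, against 1113, 950 and 1009 CPM with DMSO. Neither gene overlapped between the groups. The log2 fold change of RPS29 was 0.48 ± 0.12 (edgeR adjusted p = 0.020) and that of RPS27 was 0.40 ± 0.11 (adjusted p = 0.029). Without replicate 2 they were 0.41 and 0.31, with adjusted p = 0.028 and 0.048.

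RPL12 sits at the base of the ribosomal stalk, where translation factors bind, and RPL22 is a 60S protein with a close paralog, RPL22L1. RPL12 had 1421, 1610 and 1427 CPM with GSK343+XL413, against 1271, 1195 and 1192 CPM with DMSO, and RPL22 had 668, 762 and 686 CPM, against 593, 555 and 576 CPM with DMSO. Both sets of libraries were apart without overlap. The log2 fold changes were 0.29 ± 0.058 for RPL12 and 0.30 ± 0.063 for RPL22, with edgeR adjusted p of 0.0079 and 0.0099. They were 0.23 and 0.24 without replicate 2.

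The stalk proper consists of RPLP0, which anchors the acidic proteins RPLP1 and RPLP2. RPLP1 was called higher, with 1812, 2187 and 1824 CPM with GSK343+XL413 against 1661, 1500 and 1557 CPM with DMSO, a log2 fold change of 0.30 ± 0.080 (edgeR adjusted p = 0.025) and of 0.21 without replicate 2. RPLP0 and RPLP2 did not pass the test. Their log2 fold changes were 0.16 ± 0.059 and 0.24 ± 0.081, with edgeR adjusted p of 0.086 and 0.064, although in both the 3 combination libraries stood above the 3 DMSO libraries. Without replicate 2 they were 0.076 and 0.15.

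Among 40S proteins with roles outside or beyond decoding, RPS6, the substrate of the S6 kinases, was called higher. It had 2555, 2986 and 2596 CPM with GSK343+XL413, against 2378, 2218 and 2168 CPM with DMSO, without overlap. Its log2 fold change was 0.27 ± 0.065 (edgeR adjusted p = 0.018) and 0.20 without replicate 2. RPS27A, which is made as a fusion with ubiquitin, had 1087, 1275 and 1082 CPM with GSK343+XL413, against 960, 877 and 888 CPM with DMSO, a log2 fold change of 0.34 ± 0.078 (adjusted p = 0.014). RPSA, also known as a laminin receptor, had 2545, 3005 and 2532 CPM, against 2387, 2286 and 2279 CPM with DMSO, and a log2 fold change of 0.22 ± 0.060 (adjusted p = 0.031). All 3 were again called without replicate 2, with log2 fold changes of 0.20, 0.26 and 0.14.

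Diamond-Blackfan genes were found on both sides of the threshold. RPS24 and RPL35A, both mutated in the disease, were called higher with log2 fold changes of 0.30 ± 0.069 and 0.33 ± 0.074 (edgeR adjusted p = 0.014 and 0.013), and so was RPL26, at 0.31 ± 0.070 (adjusted p = 0.012). RPS19, the gene most often mutated, had 1068, 1279 and 1046 CPM with GSK343+XL413, against 1038, 943 and 951 CPM with DMSO. Its groups were apart by little and it did not pass the test (log2 fold change 0.21 ± 0.080, edgeR adjusted p = 0.095). RPS26, which lines the mRNA exit channel, gave 0.26 ± 0.082 (adjusted p = 0.051), and RPS14, of the 5q- syndrome, 0.19 ± 0.070 (adjusted p = 0.083). Without replicate 2 the calls were the same for these 6 genes, with log2 fold changes of 0.27 for RPS24, 0.26 for RPL35A and 0.25 for RPL26. Those of RPS19, RPS26 and RPS14 were then 0.12, 0.18 and 0.096.

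RPL5 and RPL11, which enter the 60S subunit together with 5S rRNA and bind MDM2 when free, differed in their values. RPL11 had 1442, 1630 and 1471 CPM with GSK343+XL413, against 1365, 1250 and 1260 CPM with DMSO, and a log2 fold change of 0.23 ± 0.067 (edgeR adjusted p = 0.038; 0.18 and 0.062 without replicate 2). RPL5 had 858, 981 and 875 CPM, against 862, 834 and 826 CPM with DMSO, so that the groups overlapped, and a log2 fold change of 0.11 ± 0.050 (adjusted p = 0.17), and 0.048 without replicate 2. The difference between the 2 genes was not tested.

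Other 60S members by role included RPL3, next to the peptidyl transferase centre, at a log2 fold change of 0.15 ± 0.044 (edgeR adjusted p = 0.041), and RPL10, a late-joining protein, at 0.17 ± 0.058 (adjusted p = 0.067). RPL13A, which is also part of an interferon-induced translation inhibitor complex, gave 0.20 ± 0.062 (adjusted p = 0.047). RPL41, which encodes the shortest of the proteins, gave 0.25 ± 0.083 (adjusted p = 0.059). RPS4X, a 40S protein, gave 0.22 ± 0.065 (adjusted p = 0.038). Of these, RPL3, RPL13A and RPS4X were no longer called without replicate 2, where their log2 fold changes were 0.10, 0.11 and 0.16 (edgeR adjusted p = 0.052, 0.061 and 0.065). RPL10 was then at 0.10 and RPL41 at 0.18. RPL36A, RPL27A, RPL34, RPS3A and RPS15A were called in both fits. Their log2 fold changes were 0.36 ± 0.092, 0.33 ± 0.072, 0.33 ± 0.080, 0.27 ± 0.062 and 0.31 ± 0.076 in all libraries. Without replicate 2 they were 0.29, 0.27, 0.25, 0.20 and 0.24.

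**Figure D3:**
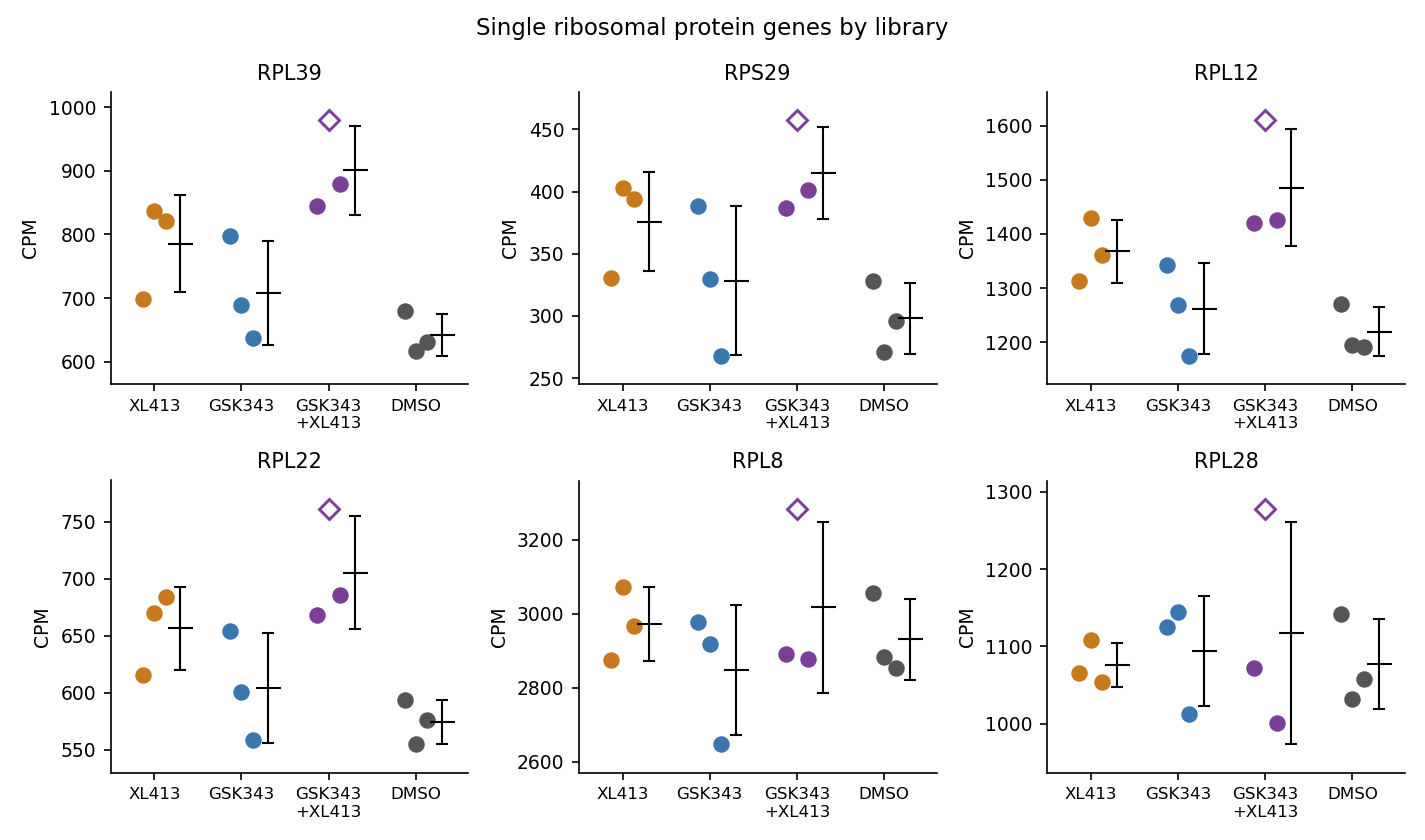
Level in CPM (y axis, not starting at 0) of 6 ribosomal protein genes in each library, by group. Points follow the replicate numbers, the open diamond is GSK343+XL413 replicate 2, and bars give mean ± SD of 3 libraries. RPL39, RPS29, RPL12 and RPL22 have all GSK343+XL413 libraries above all DMSO libraries, whereas RPL8 and RPL28 overlap.

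At the other end, RPL8, RPL28 and RPS15 were among the 4 members with the lowest fold changes. RPL8, a large protein near the peptidyl transferase centre, had 2891, 3283 and 2878 CPM with GSK343+XL413, against 3055, 2882 and 2854 CPM with DMSO. RPL28, a 60S protein, had 1072, 1278 and 1001 CPM with GSK343+XL413, against 1142, 1032 and 1058 CPM with DMSO. In both genes the groups overlapped, with replicate 2 of the combination alone above every DMSO library. Their log2 fold changes, 0.042 ± 0.056 and 0.052 ± 0.076, did not pass the edgeR test (adjusted p = 0.656 and 0.685) and turned to −0.018 and −0.051 without replicate 2. RPS15 likewise had only replicate 2 above every DMSO library, at 684, 792 and 641 CPM with GSK343+XL413 against 699, 648 and 652 CPM with DMSO.

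**Figure D4:**
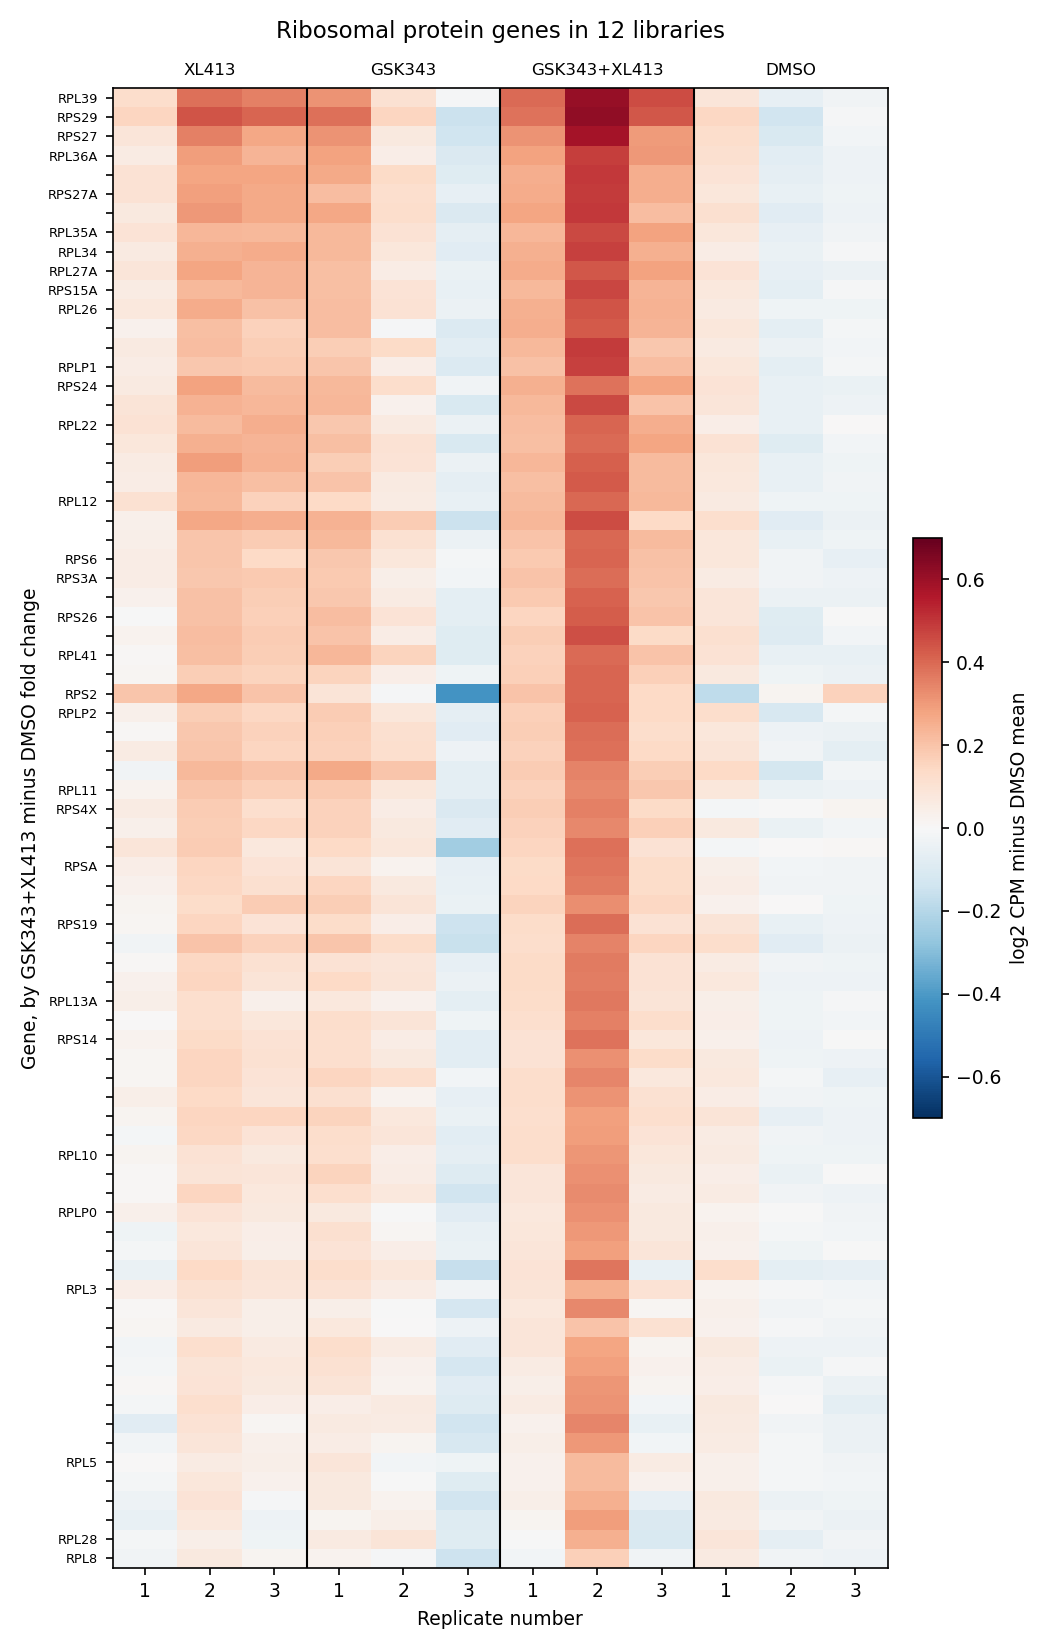
Log2 CPM of each ribosomal protein gene (rows, by GSK343+XL413 fold change; genes whose fold change is given in the text are labelled) in each library (columns, by group and replicate number), as the difference from the DMSO mean, in colour. GSK343+XL413 replicate 2 has the highest median difference, 0.38, and GSK343 replicate 3 the lowest, −0.073.

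With XL413 alone most members lay slightly above DMSO, and whether they were called depended on the fit. Members had a median log2 fold change of 0.11 against DMSO, with 75 of 77 above 0, and a median of −0.0068 for all tested genes. With edgeR's quasi-likelihood test 0 members were called higher, against 0.278% of all genes. An unadjusted p under 0.05 in this direction was found for 20 members, against 6.53% of all genes. DESeq2 called 1 and limma-voom 0, without shares of all genes computed. Without GSK343+XL413 replicate 2, which lowers the spread that all groups share, 4 were called higher, RPL39, RPL12, RPL22 and RPS27A, against 2.27% of all genes. In a fit of only the XL413 and DMSO libraries, 34 members were called higher, against 4.53% of all genes, with a median SE of 0.037 in place of 0.070. No member was called lower with or without that combination library, against 0.149% of all genes and 2.59% without that library. Also 0 were lower with an unadjusted p under 0.05, against 7.16% of all genes, and 10.6% without that library. In 16 of 77 members all XL413 libraries exceeded all DMSO libraries, against 11.9% of all genes. Those comprised RPLP0, RPSA, RPS2, RPS4X, RPS12, RPS27A, RPS29, RPL3, RPL12, RPL13, RPL22, RPL26, RPL34, RPL35A, RPL37A and RPL39.

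Single genes showed how the XL413 libraries were spread. RPL39 had 698, 838 and 820 CPM with XL413, against 680, 616 and 631 CPM with DMSO, with replicate 1 close to the DMSO range. Its log2 fold change was 0.29 ± 0.086 (edgeR adjusted p = 0.16) and 0.30 ± 0.073 without the combination library (adjusted p = 0.030). RPS29 had 330, 403 and 394 CPM with XL413, against 328, 271 and 296 CPM with DMSO, a log2 fold change of 0.33 ± 0.12 (adjusted p = 0.24), and RPS27 gave 0.24 ± 0.11 (adjusted p = 0.36). RPL12 had 1314, 1429 and 1362 CPM with XL413, against 1271, 1195 and 1192 CPM with DMSO (0.17 ± 0.058, adjusted p = 0.23, and 0.032 without the combination library). For RPL22 and RPS27A the log2 fold changes were 0.19 ± 0.063 and 0.22 ± 0.078 (adjusted p = 0.20 and 0.23). RPL28, RPL35 and RPS15 were among the 4 members with the lowest values.

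GSK343 alone moved no member past the threshold. The median log2 fold change against DMSO was 0.059 (0.063 without GSK343+XL413 replicate 2), against 0.0011 for all tested genes, and 67 of 77 were above 0. EdgeR's quasi-likelihood test called 0 members higher, against 0.725% of all genes (2.56% without that library, again with 0 members). It called 0 lower, against 0.440% (3.59% without that library, with 0 members). Also 0 members had an unadjusted p under 0.05, against 6.95% of all genes higher and 7.30% lower. DESeq2 and limma-voom also called 0. No member had all GSK343 libraries above all DMSO libraries, which was so for 11.2% of all genes. The libraries themselves lay far apart, with a median member at 0.16, 0.067 and −0.073 log2 from the DMSO mean in replicates 1 to 3. RPL39 had 798, 690 and 637 CPM with GSK343, against 680, 616 and 631 CPM with DMSO (log2 fold change 0.14 ± 0.086, edgeR adjusted p = 0.50). RPS29 gave 0.14 ± 0.12 (adjusted p = 0.66), and RPL37 and RPS24 were the others of the 4 highest. RPS2, a 40S protein near the mRNA entry, was lowest, with 3072, 2861 and 2157 CPM with GSK343 against 2549, 2918 and 3219 CPM with DMSO (−0.10 ± 0.11, adjusted p = 0.75), ahead of RPL8, RPS9 and RPL18. The 3 comparisons share the same DMSO libraries, so their fold changes are not independent of each other.

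The interaction asked whether GSK343 acted on these genes otherwise in the presence of XL413. It was not called for any member or any other gene (0 and 0% of 15443 genes by edgeR; DESeq2 and limma-voom called 0 members), and 0 members had an unadjusted p under 0.05. The median interaction of the members was 0.059 on the log2 scale, from −0.037 for RPL37 to 0.14 for RPS2, against 0.0054 for all genes, with a median SE of 0.099. Without GSK343+XL413 replicate 2 it was −0.031 and 64 of 77 members were below 0, so its direction rested on that library.

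Members moved up and down together between libraries. The first principal component of their log2 levels over the 12 libraries held 91.5% of the variance, against 64.8% for 578 other genes with a mean above 8 log2 CPM. Without GSK343+XL413 replicate 2 it held 88.8% and 46.1%. Within groups the median SD was 0.102 for the members and 0.0516 for those genes, and 0.0811 and 0.0329 without GSK343+XL413 replicate 2. The median member stood 0.029, 0.17 and 0.15 log2 from the DMSO mean in the XL413 libraries, 0.16, 0.38 and 0.14 in the GSK343+XL413 libraries and 0.070, −0.037 and −0.029 in the DMSO libraries themselves. RPS29, RPS2 and RPS27 varied most within groups, with an SD of 0.182, 0.176 and 0.166 on the log2 scale, and RPL4, RPL3 and RPL5 least, with 0.0455, 0.0575 and 0.0653. Since the genes share this movement, their count of calls is not a count of independent events. In every library, the members' median deviation from the rest of the group had the opposite sign to rho of deviations with transcript length. These were −0.18 and 0.47 in GSK343 replicate 3, −0.12 and 0.35 in XL413 replicate 1, and 0.10 and −0.21 in DMSO replicate 1. In XL413 replicate 3 both were small, 0.036 and −0.021. The 578 other genes were not matched for length, and the part of length was not tested.

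The size of the change followed base composition and length within the 77 genes. Across members, the log2 fold change against DMSO fell with the GC content of the transcript, with a Spearman's rho of −0.44 for XL413, −0.57 for GSK343 and −0.47 for GSK343+XL413. Over all tested genes with a reference sequence (14951) these were 0.017, −0.20 and −0.058. Without replicate 2 the combination gave −0.52 over members and −0.14 over all genes. With transcript length the members gave −0.36, −0.34 and −0.36, against −0.18, −0.030 and −0.33 over all genes. Without replicate 2 the combination gave −0.34 over members and −0.12 over all genes with transcript length. With coding length the members gave −0.50, −0.59 and −0.54, against −0.18, −0.058 and −0.37 over all genes. Without replicate 2 the members stayed at −0.50 in the combination and all genes were at −0.15. These are descriptions across genes, which are not independent replicates. In the combination, the 14 members with 40 to 45% GC had a median of 0.28 and the 5 members above 60% GC one of 0.11, or 0.22 and 0.014 without replicate 2. Among transcripts of 500 to 750 nt, the 32 members had a combination median of 0.22 and all 695 genes of that length one of 0.15. Without replicate 2 these were 0.15 and 0.093. For XL413 they were 0.11 and 0.071, and for GSK343 0.062 and 0.040, with all libraries. Up to 500 nt, the 9 members and all 173 genes had medians of 0.17 and 0.078 with XL413, and of 0.073 and 0.084 with GSK343.

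**Figure D5:**
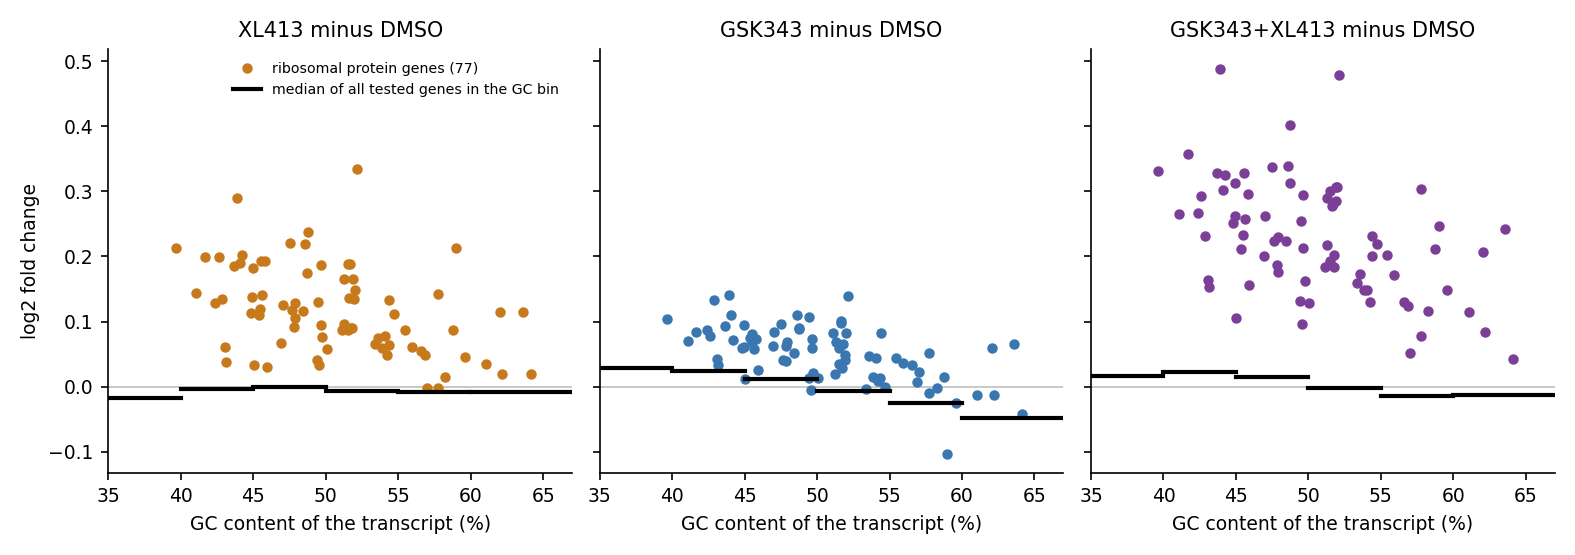
Log2 fold change (y axis) of each ribosomal protein gene against the GC content of its transcript in percent (x axis), for each treatment minus DMSO, from all 12 libraries. Black lines give the median of all tested genes in each GC bin. The points fall with GC content, with a Spearman's rho of −0.44, −0.57 and −0.47 over the 77 genes.

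Removing smooth trends with transcript length and GC content from each library lowered the members' median in the combination to 0.097, and to 0.070 without replicate 2. The number called higher was then 34, against 7.82% of all genes, and 29, against 7.04%. In the combination 22 members were called higher in all 4 fits, with and without the correction and with and without replicate 2. Among them were RPSA, RPS3A, RPS15A, RPS18, RPS20, RPS24, RPS25, RPS27, RPS27A, RPS29, RPL12, RPL22, RPL26, RPL27A, RPL34, RPL35A, RPL36A, RPL37A, RPL38, RPL39 and RPLP1. RPL39 kept a corrected log2 fold change of 0.30 (edgeR adjusted p = 0.00041). For XL413 the correction gave a median of 0.053 and 3 members called higher, against 1.72% of all genes, and 20, against 4.25%, without GSK343+XL413 replicate 2. For GSK343 it gave a median of 0.013 and 0 called higher, against 1.70%, and 0 again without that library, against 3.35%. After the correction with all libraries, the members' rho with GC content was −0.37 for XL413, −0.14 for GSK343 and −0.16 for GSK343+XL413. With coding length it was −0.41, −0.48 and −0.41.

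Other parts of the pathway did not all go the same way in the combination. Of 6 tested paralogs of ribosomal proteins, 3 were called higher and 1 lower by edgeR, against 6.69% and 7.25% of all genes. RPL22L1 had 121 ± 14.4 CPM with GSK343+XL413 and 88.0 ± 4.83 CPM with DMSO (SD, n = 3 each; log2 fold change 0.46 ± 0.093, adjusted p = 0.0072), RPS27L rose by 0.31 and RPL39L by 0.39, and RPL7L1 fell by 0.26. Without replicate 2 RPL22L1 and RPS27L rose by 0.37 and 0.24, and RPL7L1 fell by 0.16. RPL39L was then at 0.32 and not called (edgeR adjusted p = 0.059). Of the ribosomal proteins named outside the rule, RACK1, listed as GNB2L1, was not called and averaged 2061 ± 127 CPM with GSK343+XL413 and 1926 ± 40.8 CPM with DMSO (SD, n = 3 each). Of 14 translation factors and other TOP mRNAs, 6 were called higher and 2 lower in both fits, the higher ones against 6.69% and 6.72% of all genes and the lower ones against 7.25% and 8.26%. EIF3H, a subunit of initiation factor eIF3, and TPT1, also named TCTP, were higher by 0.20 and 0.28 on the log2 scale. EEF1A1, the factor that brings tRNA to the ribosome, was higher by 0.16, while PABPC1, the poly-A binding protein, fell by 0.17. Without replicate 2 the log2 fold changes of these genes were 0.20, 0.24, 0.14 and −0.17.

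Ribosome assembly factors, which build the subunits in the nucleolus, had 0 of 43 called higher and 7 called lower in the combination, against 7.25% of all genes, and 13 lower without replicate 2, against 8.26%. Their median log2 fold change was −0.062, and −0.074 without replicate 2, against 0.22 and 0.15 for the ribosomal protein genes. These values are not corrected for transcript length. Over all tested genes the combination median was 0.15 at 500 to 750 nt and −0.067 at 4000 to 6000 nt. Without replicate 2 these were 0.093 and −0.010. The part of length in the values of the gene lists was not tested. Nucleolin (NCL) had 1224 ± 18.8 CPM with GSK343+XL413 and 1367 ± 14.7 CPM with DMSO (SD, n = 3 each; log2 fold change −0.16 ± 0.028, edgeR adjusted p = 0.0042), and NOP14, RRP12 and NOP2, which act in small and large subunit processing, fell by 0.22, 0.20 and 0.21. Without replicate 2 NCL, NOP14, RRP12 and NOP2 fell by 0.15, 0.18, 0.16 and 0.16. In the RNA polymerase I list 2 of 19 were called higher, against 6.69% of all genes, and 4 lower, against 7.25%. Without replicate 2 these were 2 and 6, against 6.72% and 8.26%. Among the called genes were UBTF, the rDNA transcription factor, which fell by 0.20, CD3EAP, a polymerase I subunit, which fell by 0.39, and POLR2K, a subunit shared by the polymerases, which rose by 0.29. Without replicate 2 UBTF and CD3EAP fell by 0.18 and 0.38 and POLR2K rose by 0.22. Of 15 regulators, 1 was called higher, against 6.69% of all genes, and 2 lower, against 7.25%, with the same counts without replicate 2. LARP1 fell by 0.33 and DDIT4, an inhibitor of mTORC1, fell by 0.20. DEPTOR, an inhibitor of mTOR, rose by 0.52 at a low level of 5.00 ± 0.261 CPM with GSK343+XL413 and 3.48 ± 0.343 CPM with DMSO. Without replicate 2 LARP1 and DDIT4 each fell by 0.25 and DEPTOR rose by 0.49. DEPTOR also rose with GSK343 alone, by 0.55 (edgeR adjusted p = 0.025), a call lost in the 5 fits that left out GSK343 replicate 1 or 2 or any DMSO library, with adjusted p up to 0.12. Mitochondrial ribosomal proteins, a separate family, had 7 of 76 called higher, against 6.69% of all genes, and a median of 0.073. MRPS14 was among those called, at 0.22, and was at 0.17 without replicate 2. Without replicate 2 the family had 2 called higher, against 6.72% of all genes, 3 lower, against 8.26%, and a median of 0.0080.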

How the data were processed

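The deposited table holds RSEM expected counts per gene, which the authors made using RSEM 1.2.15, Bowtie2 2.1.0 and build hg38, per the submitters' processing notes. Annotation, strand setting and trimming: not given in the sources used here. Values were rounded to whole numbers for edgeR 4.0.16 (R 4.3.3): filterByExpr (minimum count 10, minimum total 15), TMM scaling, and a quasi-likelihood fit of all 12 libraries, 1 coefficient for each group (8 residual degrees of freedom). The two-sided p-values were adjusted over 15443 genes (Benjamini-Hochberg), with calls at an adjusted p under 0.05. The fit without GSK343+XL413 replicate 2 tested 15584 genes. A positive log2 fold change means higher with the compound. CPM use the scaled library sizes. For the SE, the absolute log2 fold change was divided by the root of F.

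Lengths and GC content came from GENCODE 29 on GRCh38, from a coding transcript of middle length per gene, with names matched for 24571 of 26475 genes. The correction subtracted spline trends on length and GC content. Alternatives were other scalings and filters, DESeq2 1.42.0, limma-voom (limma 3.58.1), fits of only the groups compared, the replicate number as a block, and leaving out each library. The model was tested on simulated counts drawn independently for each gene, which cannot show how calls behave in genes that move together.

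The members and the gene lists were chosen with earlier results of these data known, so counts and medians over them are descriptions. Named members were 20 chosen by role, the 4 highest and 4 lowest per comparison, the 3 highest and lowest per length, and up to 12 called per comparison by smallest p. Lists were named by up to 4 called members or the highest levels. Some members and other genes that these rules name are not reported here.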

Additional observations from a re-analysis of the deposited data

How the results depend on the processing

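The members' median kept its direction in the XL413 and GSK343+XL413 comparisons under every setting run. For XL413, 0 members called higher became 1 with DESeq2, where the share of all genes was not computed. It became 34 with only the groups compared, against 4.53% of all genes, and 3 with the length and GC correction, against 1.72%. With that correction and without GSK343+XL413 replicate 2, a setting chosen after seeing the data, it became 20, against 4.25%. For GSK343+XL413, 39 became 16 with only the groups compared, against 2.21% of all genes. The corrected medians were 0.097 and, without replicate 2, 0.070. In that last fit 1 member, RPL28, was called lower, and the share of all genes called lower was not computed. The cause was not tested.

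Leaving out each library gave 0 to 4 members called higher for XL413, against 0.0640 to 2.27% of all genes. For GSK343+XL413 it gave 2 to 53, against 2.27 to 7.32%. Medians then ran from 0.091 to 0.16 for XL413, −0.00086 to 0.12 for GSK343, 0.15 to 0.26 for GSK343+XL413 and −0.031 to 0.11 for the interaction. Shares ran from 9.91 to 10.3% with XL413, 9.52 to 10.2% with GSK343 and 10.4 to 11.2% with GSK343+XL413, against 9.23 to 9.47% with DMSO. Single genes that changed sign were RPL8 (−0.018 to 0.073), RPL28 (−0.051 to 0.12) and, for GSK343, RPS2 (−0.21 to 0.040). With the correction RPL8, RPL28 and RPL5 stood at −0.033, −0.047 and −0.026, and at −0.018, −0.095 and −0.046 without replicate 2. None of these was called in the fit of all libraries.

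The replicate numbers showed no pairing of the samples. Of 18 same-numbered pairs of libraries, 4 correlated over 0.1 in their deviations from the group means (r from −0.42 to 0.34). Of 12 libraries, 4 correlated best with their own number. The labels do not say which libraries were prepared together, so a pairing is not excluded. With the replicate block 41 members were called higher for GSK343+XL413 (median 0.22), 0 for XL413 (0.11) and 0 for GSK343 (0.056). The shares of all genes called in that fit were not computed, so these counts have no background beside them. The members' median SE for XL413 was 0.070 with the spread shared by all groups and 0.037 with only the groups compared.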
